A study of Drosophila melanogaster with 12 samples.

Results

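The odorant binding protein genes of the fly were followed through a light/dark day and the day of constant darkness after it. They were taken as every probe set annotated with exactly 1 gene symbol that begins with Obp and a number, with 1 probe set per gene. The rule gave 35 genes among 13966 tested probe sets, and it used no measured difference. The family itself was chosen with earlier results of these data known. Messenger RNA came from heads of adult Drosophila melanogaster of the strain y w; tim01, and all samples carry the same alleles. The yellow and white mutations lighten body and eye pigment, and the tim01 mutation disables timeless, a gene of the circadian clock. Flies had lived under 12 h of light and 12 h of dark for 3 days before sampling.

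Heads were then taken every 4 h, and each time point was measured on 1 Affymetrix array. The labels describe 100 to 200 heads per sample, separated from frozen flies by sieving. The 12 arrays formed 4 groups of 3. The LD light group held the times ZT2, ZT6 and ZT10, counted in hours from lights on, and the LD dark group held ZT14, ZT18 and ZT22. The flies then stayed in constant darkness (DD). The DD subjective day held CT2, CT6 and CT10, the hours at which light would have been on, and the DD subjective night held CT14, CT18 and CT22. The 3 arrays of a group are different hours and not repeats of 1 condition, so the p-value of a group difference rests on the spread between these arrays. That of a 24 h curve, fitted below, rests on the scatter of the single arrays around the curve. The DD day always followed the LD day, so lighting, day of collection and age of the flies cannot be told apart. No wild-type heads were analysed here, and the labels give neither sex nor age.

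Odorant binding proteins are small secreted carriers. In the antenna, support cells release them into the fluid around the sensory hairs, where they bind hydrophobic molecules such as odorants and pheromones. Many members of the family are made outside the antenna, in taste organs, fat body, glia or the male reproductive tract, and for many of them no ligand is known. In the fly genome they lie largely in tandem clusters whose members share the number in their name.

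The arrays measured 35 of the 51 Obp genes that RefSeq lists for the fly, and the 16 others were not analysed here. These are Obp22a, Obp49a, Obp50a, Obp50b, Obp50c, Obp50d, Obp51a, Obp56b, Obp56f, Obp56i, Obp57a, Obp57b, Obp57d, Obp57e, Obp83a and Obp83g. A further 2 probe sets name an Obp gene together with a neighbour and were left out. The signal of a probe set is a log2 RMA value, so a difference of 1 is a doubling, and because probe sets differ in brightness no gene's level was set against another's. As an outer mark, 9 members lay above the upper quartile of all probe sets on every array (Obp18a, Obp19d, Obp44a, Obp56d, Obp56e, Obp56g, Obp99a, Obp99b and Obp99c), and 16 lay above the array median on every array. Below the median on every array were 18 members, and 8 of these were below the lower quartile throughout (Obp46a, Obp47a, Obp50e, Obp56c, Obp58c, Obp59a, Obp69a and Obp84a). Obp56a, which lay above the median on 7 arrays and below it on the other 5, crossed it during the day.

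Most members varied little. The range of a gene over the 12 arrays had a median of 0.374 log2 units among the 35 members, and a median of 0.344 among all probe sets. Obp56a had the widest range of the family, at 1.07, followed by Obp56e with 0.81 and Obp83b with 0.73. A range above 1 was found for 1 of the 35 members (2.86%) and for 211 of all probe sets (1.51%). The plot of deviations shows a few active rows in a mostly pale field.

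**Figure D1:**
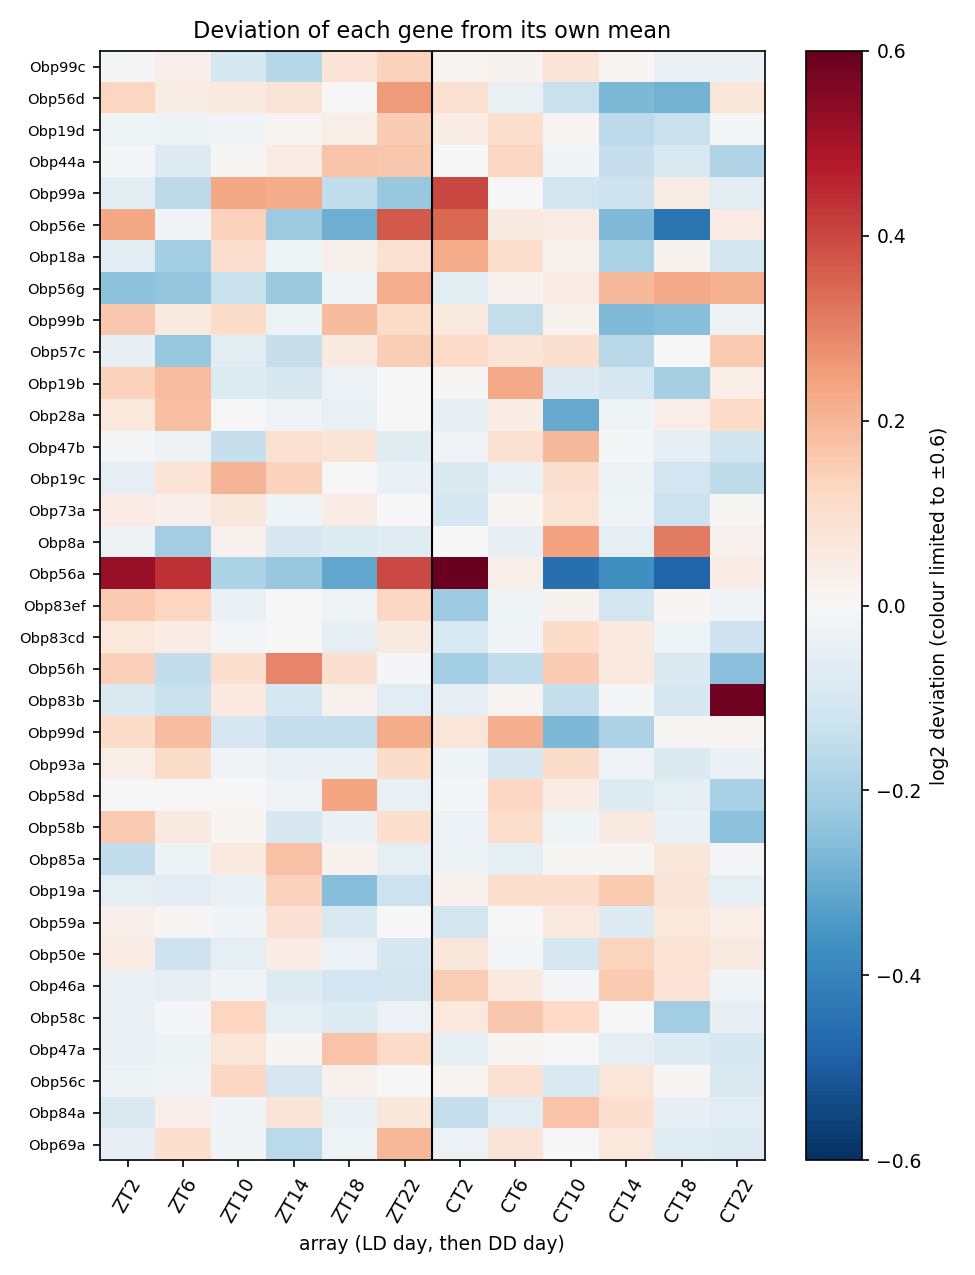
Deviation of each of the 35 genes (rows) from its own mean over the 12 arrays (columns in order of collection, LD day left and DD day right of the line), in log2 units, with the colour limited to ±0.6. Obp56a is the row with the widest range (1.07), high at ZT2, ZT6, ZT22 and CT2, and Obp83b stands out on CT22 alone.

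Obp56a changed over the day. It is the first gene of the Obp56 cluster, and its log2 values on the LD day were 4.83 at ZT2, 4.75 at ZT6, 4.12 at ZT10, 4.08 at ZT14, 3.997 at ZT18 and 4.70 at ZT22. On the DD day they were 4.90 at CT2, 4.34 at CT6, 3.86 at CT10, 3.94 at CT14, 3.83 at CT18 and 4.35 at CT22. Hours 22, 2 and 6 were thus high on both days, and hours 10, 14 and 18 were low. Values at the same clock hour followed each other between the 2 days, with a Pearson correlation of 0.91 over the 6 hours, given as a description.

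A cosine curve with a period of 24 h was fitted to each probe set, and a moderated F test asked whether its amplitude differs from 0. All p-values for many probe sets are from limma with Benjamini-Hochberg adjustment over the 13966 probe sets, with a threshold of 0.05. With a single curve for both days, Obp56a had an amplitude of 0.48 log2 units (SE 0.056, limma adjusted p = 0.0334). The fitted curve peaked 2.21 ± 0.442 h (SE) after lights on or subjective lights on, and peak and trough were 1.95-fold apart. This was 1 of 35 members, and Obp56a was the sole probe set of 13966 that passed, a background of 0.00716%. On the DD day alone the amplitude was 0.49 (SE 0.083, limma adjusted p = 0.0366) with a peak at 2.04 h, and again 1 of 35 members passed, against 109 of all probe sets (0.78%). On the LD day alone the amplitude was 0.48 (SE 0.083) with a peak at 2.37 h, which did not pass (limma adjusted p = 0.107), and 0 of 35 members passed there, against 9 of all probe sets (0.0644%). The difference between the DD and the LD curve of Obp56a had an amplitude of 0.04 (SE 0.117, limma adjusted p = 0.989), so a difference between the days was not shown.

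The calls on Obp56a stand close to the threshold, while the shared amplitude moved little. Leaving out CT14 kept the shared curve past the threshold (adjusted p = 0.0159). Leaving out any of the other 11 arrays ended the call, with limma adjusted p between 0.0533 without ZT14 and 0.185 without ZT2. The shared amplitude then lay between 0.43 and 0.54 throughout, and the peak between 1.94 and 2.44 h. The DD call was lost without ZT6 (adjusted p = 0.0537), CT2 (0.314), CT6 (0.0883), CT10 (0.0834), CT14 (0.054) or CT18 (0.116), all limma values. The CT2 array, where Obp56a was highest, also had the lowest median of all arrays, 4.0 against 4.06 to 4.10, and without it the DD amplitude was 0.35, the lowest of a leave-out range that reached 0.64 without CT14.

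**Figure D2:**
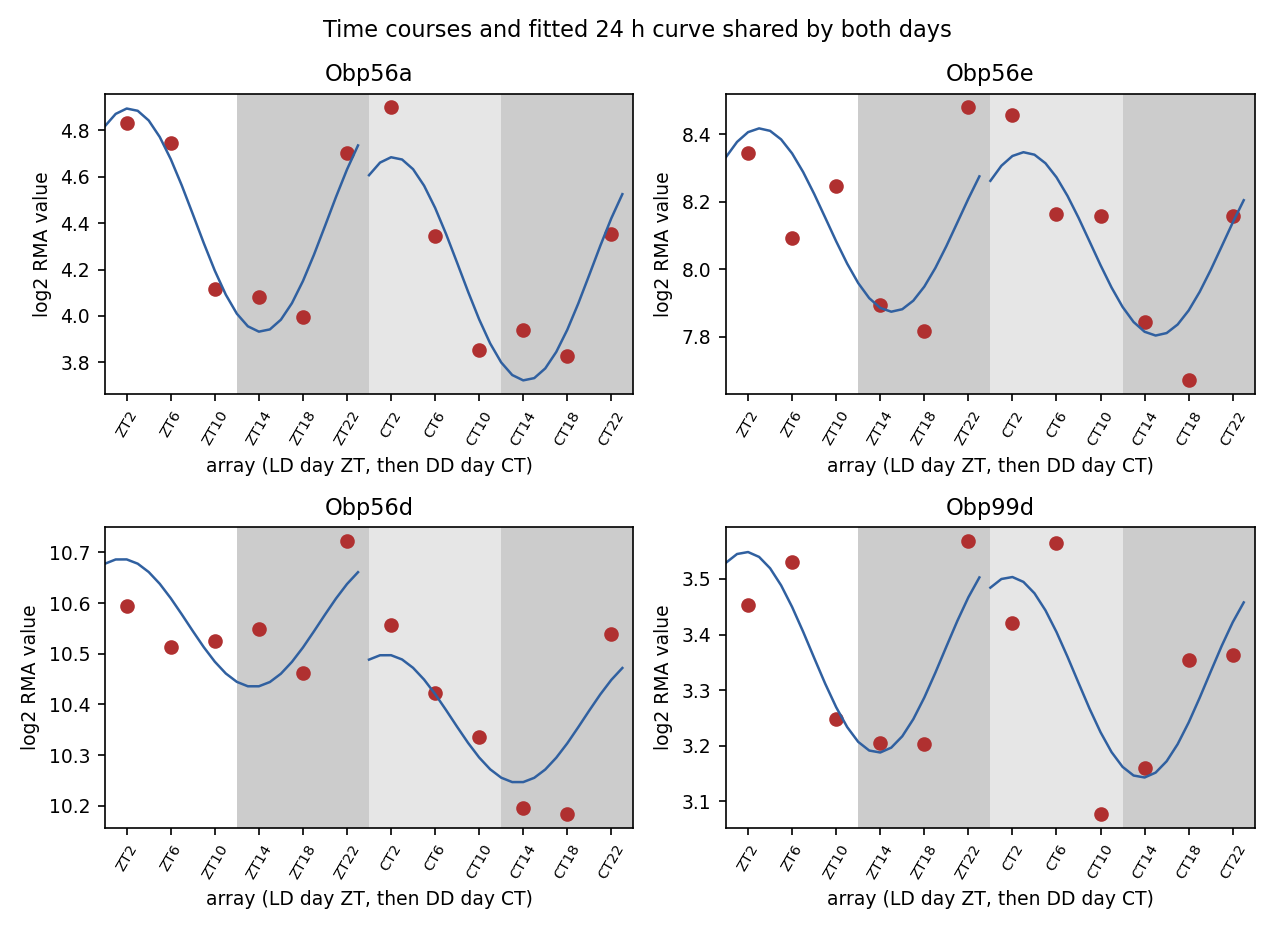
Log2 RMA values (points) of Obp56a, Obp56e, Obp56d and Obp99d on the 12 arrays in order of collection, with the 24 h curve fitted to both days together (line; the day means may differ). Dark grey marks LD dark and DD subjective night, and light grey the DD subjective day. Obp56a lies between 4.34 and 4.90 at hours 22, 2 and 6 and between 3.83 and 4.12 at hours 10, 14 and 18.

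The split of hours that fits Obp56a is not the split between day and night. Over the 6 arrays of hours 22, 2 and 6 it averaged 4.65 ± 0.24 (SD, n = 6), and over those of hours 10, 14 and 18 it averaged 3.97 ± 0.12 (SD, n = 6), a difference of 0.68 with no overlap. That split was chosen after the values of Obp56a were seen, so no test is given. Obp19b and Obp99d also lay entirely higher at hours 22, 2 and 6, and Obp85a entirely lower. Groups without overlap were found for 0.516% of all probe sets under this split, and nothing is read from the members' count. Between light and dark phases, Obp56a averaged 4.57 ± 0.39 in LD light and 4.26 ± 0.39 in LD dark, a difference of 0.30 (SE 0.246, limma adjusted p = 0.826). In DD it averaged 4.37 ± 0.52 in subjective day and 4.04 ± 0.28 in subjective night, a difference of 0.33 (SE 0.246, limma adjusted p = 0.774). Both pairs of groups overlapped. The SE of these differences includes the change of Obp56a between the hours of a group. The p-values therefore do not show that day and night were alike.

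Of the 3 members whose values were most alike to those of Obp56a over the 12 arrays, Obp56e and Obp56d belong to the Obp56 cluster and Obp99d does not. RefSeq places Obp56a, Obp56b, Obp56c, Obp56d, Obp56e and Obp56f in a row with 0 other protein-coding genes between neighbours, while 2 separate Obp56f from Obp56g. Obp56e, listed here with genes of the male tract, read 8.34, 8.09, 8.25, 7.89, 7.82 and 8.48 from ZT2 to ZT22, and 8.46, 8.16, 8.16, 7.84, 7.67 and 8.16 from CT2 to CT22. Its highest values were at ZT22 and CT2, and its lowest at ZT18 and CT18. The shared amplitude was 0.27 (SE 0.063) with a peak at 3.10 h, which did not pass (limma adjusted p = 0.255).

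Obp56d lies next to Obp56e and read 10.59, 10.51, 10.53, 10.55, 10.46 and 10.72 from ZT2 to ZT22, and 10.56, 10.42, 10.34, 10.20, 10.18 and 10.54 from CT2 to CT22. Its low points fell in the DD subjective night, at CT14 and CT18. The DD amplitude of 0.19 (SE 0.052, peak at 2.20 h) did not pass (limma adjusted p = 0.236), and the LD amplitude was 0.07.

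Over the 12 arrays the Pearson correlation with Obp56a was 0.77 for Obp56e and 0.73 for Obp56d, while Obp56d and Obp56e correlated at 0.74. In the same cluster Obp56c correlated at -0.04 with Obp56a, Obp56g at -0.36 and Obp56h at -0.40. Across the family, the 34 pairs of members that share a cluster number had a median correlation of -0.02, and all 595 pairs of members had 0.03. These correlations describe arrays that share 1 time course, and they carry no test.

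Among all 10843 other genes, 0 correlated with Obp56a above 0.9 and 15 above 0.8. The 8 most alike were Phk-3 (0.89), wek (0.88), CG17224 (0.85), CAH5 (0.85), CG4306 (0.85), Listericin (0.84), Ir56d (0.83) and CG13369 (0.82). Phk-3 encodes a member of the insect chemosensory protein family, another class of small secreted carriers, and Listericin encodes an antibacterial peptide. Ir56d encodes an ionotropic receptor of taste neurons, CAH5 a carbonic anhydrase, and wek a zinc finger protein that binds the Toll receptor. The means of wek and Ir56d, 2.97 and 2.86, lay near the lower quartile of the arrays. The ranges of wek, Ir56d and CG13369 were narrow, at 0.279, 0.345 and 0.26, against a median of 0.344 among all probe sets. Phk-3 read 6.85, 6.82, 6.58, 6.53, 6.59 and 6.75 from ZT2 to ZT22, and 6.78, 6.76, 6.23, 6.44, 6.33 and 6.55 from CT2 to CT22. Its shared amplitude was 0.20 (SE 0.041) with a peak at 2.46 h. That of CAH5 was 0.53 (SE 0.081) with a peak at 2.13 h, a larger swing than that of Obp56a with a larger error. The shared amplitudes of the other 6 ran from 0.08 for wek to 0.26 for CG4306, and the peaks of all 8 lay between 1.76 and 2.77 h. Since these genes were picked for their likeness, no p-value is given for them.

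Outside the Obp56 cluster, Obp99d correlated with Obp56a at 0.77, ranking after Obp56e and ahead of Obp56d. It read 3.45, 3.53, 3.25, 3.20, 3.20 and 3.57 from ZT2 to ZT22, and 3.42, 3.56, 3.08, 3.16, 3.35 and 3.36 from CT2 to CT22, below the median on every array. The shared amplitude of 0.18 (SE 0.043, peak at 1.79 h) did not pass (limma adjusted p = 0.269). Obp19c peaked at another time, with a shared amplitude of 0.12 (SE 0.027) and a peak at 10.5 h (limma adjusted p = 0.255). For the LD curves Obp85a had the smallest p-value after Obp56a, with an amplitude of 0.14 (SE 0.041) and a peak at 13.5 h (limma adjusted p = 0.456). The LD amplitudes of 5 further members were larger than that of Obp85a.

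Over the whole family, the shared amplitudes had a median of 0.05, and all probe sets had a median of 0.06. The DD amplitudes had medians of 0.12 among members and 0.08 among all probe sets, and the LD amplitudes had 0.09 among members and 0.08 among all probe sets. An unadjusted p under 0.05 was reached by 10 members (28.6%) for the shared curve, against 12.8% of all probe sets. For the DD curve it was reached by 10 members (28.6%), against 11% of all probe sets, and for the LD curve by 5 members (14.3%), against 8.94%.

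**Figure D3:**
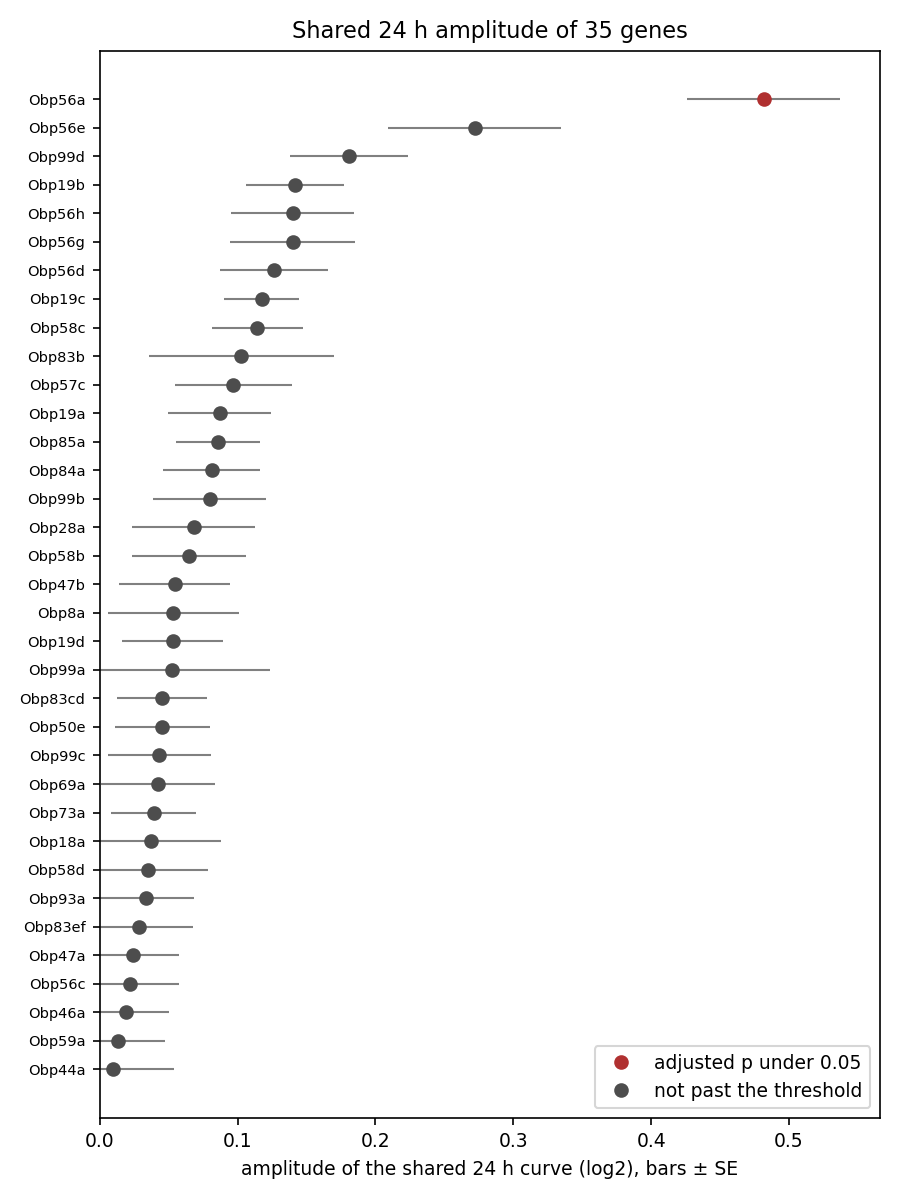
Amplitude (log2 units, bars ± SE) of the 24 h curve fitted to both days together for each of the 35 genes, sorted by amplitude. Obp56a (red, 0.48) is the only gene past an adjusted p of 0.05, Obp56e follows at 0.27, and Obp44a is lowest at 0.01.

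No member passed in any comparison between the 4 groups. For LD light minus LD dark, 0 of 35 members passed, against 4 of all probe sets (0.0286%), and at an unadjusted p under 0.05 there were 2 members (5.71%) against 7.12% of all. For DD subjective day minus DD subjective night, 0 members passed against 194 of all probe sets (1.39%), with 6 members (17.1%) under an unadjusted 0.05 against 9.04% of all. The median difference in DD was 0.06 among members and 0.003 among all probe sets, with 25 members higher in subjective day and 10 lower. Among the 3 arrays of each group, 4 members did not overlap between LD light and LD dark (11.4%, background 12.9%), and 8 did not overlap between DD subjective day and DD subjective night (22.9%, background 14.2%).

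Between the days, 0 members passed for DD subjective day minus LD light, where 0 of all probe sets did (0%), and 3 members (8.57%) were under an unadjusted 0.05 against 7.51% of all. For DD subjective night minus LD dark, 0 members passed against 28 of all probe sets (0.2%), with 8 members (22.9%) under an unadjusted 0.05 against 9.7% of all. For the whole DD day minus the whole LD day, 0 members passed against 3 of all probe sets (0.0215%), and 8 members (22.9%) were under an unadjusted 0.05 against 10.8% of all. Groups without overlap were found for 6 members between DD subjective day and LD light (17.1%, background 13.6%) and for 8 between DD subjective night and LD dark (22.9%, background 14.1%). The difference of the day-night differences, DD minus LD, passed for 0 members and 0 of all probe sets (0%), with 5 members (14.3%) under an unadjusted 0.05 against 7.34% of all. The difference between the DD and LD curves likewise passed for 0 members and 0 of all probe sets (0%), with 3 members (8.57%) under an unadjusted 0.05 against 7.59% of all.

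Within that, Obp44a and Obp19d showed opposite day-night orders on the 2 days. Obp44a encodes a carrier of fatty acids made in glia of the brain. In DD it read 10.16, 10.28 and 10.14 in subjective day, against 10.02, 10.07 and 9.98 in subjective night. In LD it read 10.15, 10.08 and 10.17 in light, against 10.21, 10.33 and 10.32 in dark. Obp44a was thus higher in every subjective day array than in every subjective night array of the DD day, and lower in every light array than in every dark array of the LD day. The DD difference was 0.17 (SE 0.065, limma adjusted p = 0.357) and the LD difference -0.16 (SE 0.065, limma adjusted p = 0.654). The gap, DD minus LD, was 0.33 (SE 0.092, limma adjusted p = 0.394), and values of the same clock hour ran against each other between the days, with a correlation of -0.85 over 6 hours. DD subjective night minus LD dark was -0.27 (SE 0.065, limma adjusted p = 0.111). That comparison passed when quantile normalization was repeated over the 12 arrays (-0.33, limma adjusted p = 0.0354).

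Obp19d, known as Pbprp2 and found in antennae and taste organs, read 10.39, 10.45 and 10.36 in DD subjective day, against 10.18, 10.21 and 10.33 in DD subjective night. It read 10.32, 10.31 and 10.33 in LD light, against 10.36, 10.38 and 10.49 in LD dark. The order of its groups was that of Obp44a, again with no overlap on either day. The DD difference was 0.16 (SE 0.064), the LD difference -0.09 (SE 0.064), and the gap between them 0.25 (SE 0.091, limma adjusted p = 0.556).

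Between the 2 days as wholes, Obp99b and Obp56g had the smallest p-values of the family, with differences of opposite sign, and neither passed. Obp99b is a gene of the head fat body with sex-dependent expression. Its mean ± SD over 3 arrays was 5.53 ± 0.11 in DD subjective day and 5.37 ± 0.13 in DD subjective night, against 5.66 ± 0.05 in LD light and 5.64 ± 0.11 in LD dark. The whole-day difference was -0.20 (SE 0.058, limma adjusted p = 0.227), and the night difference alone was -0.28 (SE 0.083, limma adjusted p = 0.215).

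Obp56g is known from the ejaculatory bulb of the male, where its protein enters the mating plug, and from taste organs. It read 7.28, 7.37 and 7.40 in DD subjective day and 7.54, 7.58 and 7.56 in DD subjective night, against 7.10, 7.12 and 7.22 in LD light and 7.13, 7.33 and 7.57 in LD dark. The DD subjective night values were close together and above all of the DD subjective day. The whole-day difference was 0.21 (SE 0.063, limma adjusted p = 0.242), DD subjective day minus LD light was 0.21 (SE 0.089, limma adjusted p = 0.628), and LD light minus LD dark was -0.20 (SE 0.089, limma adjusted p = 0.691). Without ZT22, its highest LD array, the whole-day difference was 0.27 and passed (limma adjusted p = 0.0362). Leaving out the highest LD value raises this difference by construction, so nothing is read from that call.

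Markers of body tissues moved in the same samples. Sieved heads can carry RNA of gut, male tract and thorax, and in DD subjective day minus DD subjective night 13 of 18 midgut markers, 11 of 20 male reproductive tract markers and 4 of 9 thorax muscle markers were called lower, and 0 higher. A score that averages the median log2 deviations of these 3 lists lay between -0.73 and 0.17 in DD subjective day and between 0.80 and 1.03 in DD subjective night. In the LD day it lay between -0.72 and -0.13 in light and between -0.70 and 0.37 in dark. Obp56g was highest on the arrays of the DD subjective night and on ZT22, where the score was 0.37, the highest of the LD day. The 3 measured male tract members did not move alike. DD subjective day minus DD subjective night was -0.21 for Obp56g, 0.37 for Obp56e and -0.03 for Obp8a (limma adjusted p = 0.461, 0.45 and 0.973). Fitting the score as a covariate changed LD light minus LD dark of Obp56g from -0.20 to -0.12 (limma adjusted p = 0.691 and 0.854). Whether body tissue caused the changes of Obp56g was not tested, and in RNA of whole heads fewer cells of a type and less RNA per cell cannot be told apart. With the score as a covariate, the DD amplitude of Obp56a was 0.41 (limma adjusted p = 0.607) and its shared amplitude 0.46 (limma adjusted p = 0.0589).

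**Figure D4:**
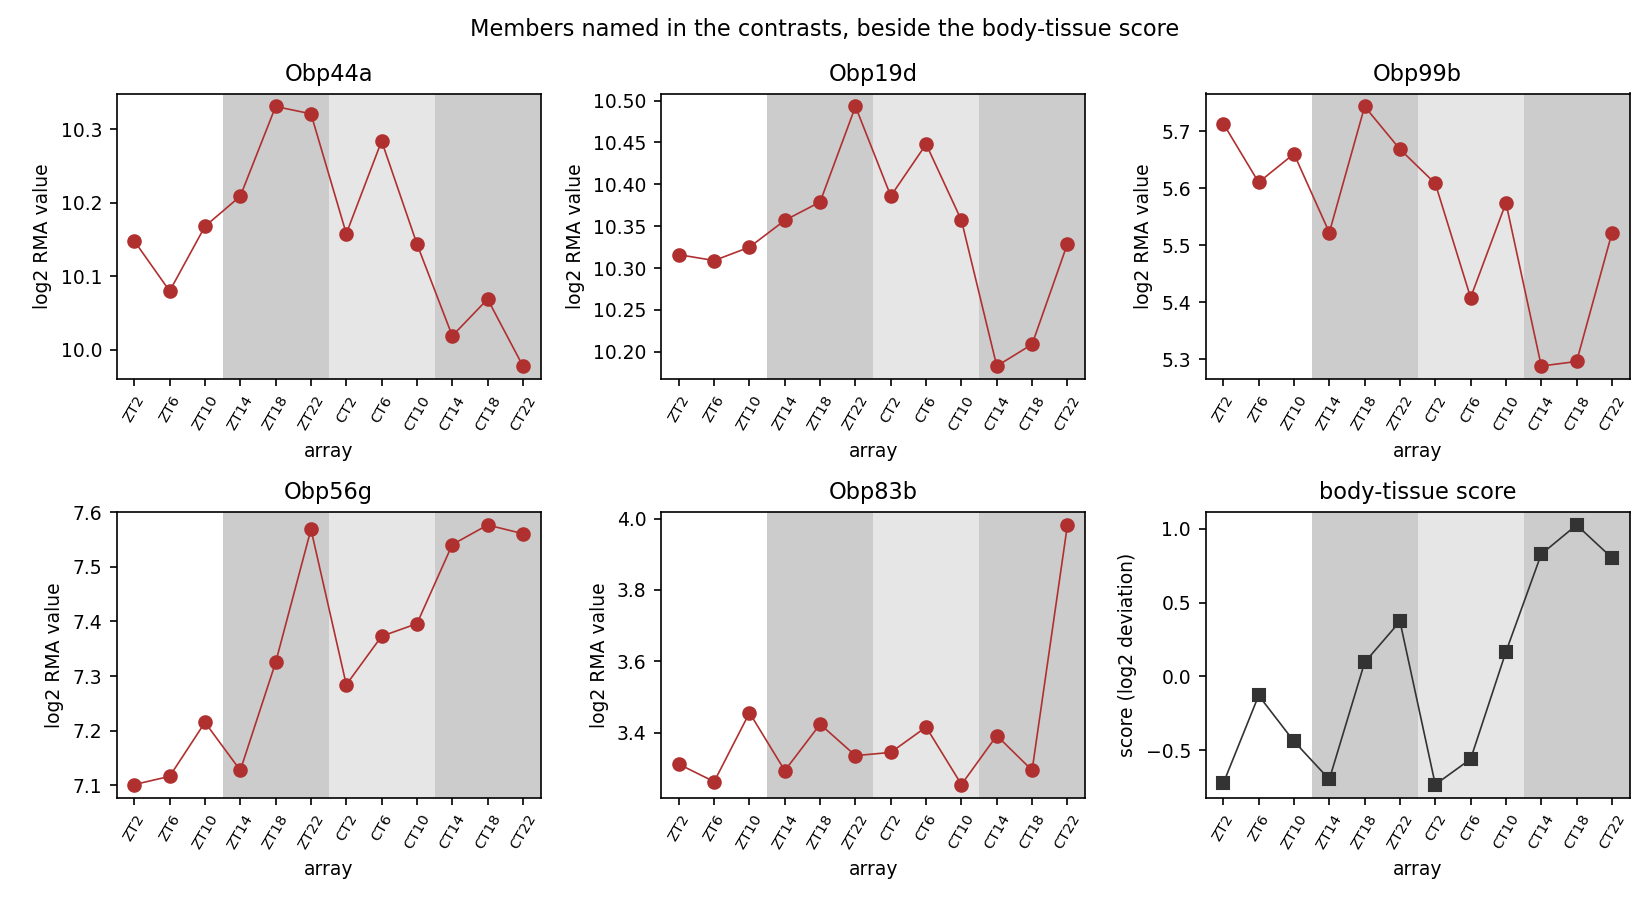
Log2 RMA values of Obp44a, Obp19d, Obp99b, Obp56g and Obp83b, and the body-tissue score (mean of the median log2 deviations of midgut, male reproductive tract and thorax muscle markers), on the 12 arrays in order of collection. Shading is dark grey for LD dark and DD subjective night and light grey for DD subjective day. Obp44a is lowest and the score highest (0.80 to 1.03) in the DD subjective night, and Obp83b is flat apart from CT22.

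Of the 8 genes listed as antennal, 7 were measured, and 0 passed in any comparison in limma. Under an unadjusted p of 0.05 there were at most 2 (28.6%), for the DD curve (all probe sets 11%) and for the difference of the day-night differences (all probe sets 7.34%). Obp83b, also called OS-E, is made by support cells of trichoid hairs. It read 3.31, 3.26, 3.46, 3.29, 3.42 and 3.34 from ZT2 to ZT22, and 3.35, 3.42, 3.26, 3.39, 3.30 and 3.98 from CT2 to CT22. A single array, CT22, thus carries its range of 0.73, and the other 11 lie between 3.26 and 3.46. On the same array Os-C, another antennal secreted protein gene, was at its highest, 3.52, against 2.48 to 3.05 elsewhere. The general antennal markers on that array were at 3.81 for Orco, 2.524 for lush, 3.913 for a10 and 3.758 for Snmp1, all below the array median there and on every array. For lush, a10 and Snmp1 these were also their highest values, by small margins. Their next highest were 2.517 at ZT14, 3.888 at CT6 and 3.735 at ZT6, while Orco was highest at CT6, at 3.99. Orco encodes the co-receptor of the odorant receptors, and lush a pheromone carrier of the same protein family. The other antennal members are Obp19a, Obp28a, Obp59a (needed for humidity sensing), Obp69a (tied to pheromone and social responses) and Obp84a. At CT22 Obp19a, Obp19d, Obp69a and Obp84a read 2.81, 10.33, 1.74 and 1.78, below their means of 2.86, 10.34, 1.82 and 1.84. Obp28a and Obp59a read 5.33 and 2.63 at CT22, above their means of 5.21 and 2.59. Obp28a lay above the median on every array, between 4.91 at CT10 and 5.39 at ZT6, while Obp69a lay between 1.66 and 2.02 and Obp84a between 1.70 and 2.01.

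Of the 5 taste organ genes, 2 were measured, and 0 passed in limma. Both were under an unadjusted p of 0.05 for the DD curve (all probe sets 11%) and for the shared curve (all probe sets 12.8%), and 0 were in the other comparisons. Obp19b, which serves amino acid taste, read 5.57, 5.62, 5.35, 5.34, 5.40 and 5.44 from ZT2 to ZT22, and 5.44, 5.66, 5.36, 5.34, 5.24 and 5.48 from CT2 to CT22. It was highest at hour 6 on both days. Its shared amplitude of 0.14 (SE 0.035, peak at 3.77 h) did not pass (limma adjusted p = 0.269). Obp56h, which affects male mating and cuticular hydrocarbons, lay between 3.16 at CT22 and 3.70 at ZT14. Of the 7 male tract genes, 3 were measured, namely Obp8a, Obp56e and Obp56g, and 0 passed. Under an unadjusted p of 0.05 there were at most 2 of these 3, for DD subjective day minus DD subjective night (all probe sets 9.04%), the whole DD day minus the whole LD day (10.8%) and the shared curve (12.8%). Obp8a lay between 4.16 at ZT6 and 4.68 at CT18.

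The Obp99 cluster and Obp44a were all measured, 5 of 5, and 0 passed. Under an unadjusted p of 0.05 there were at most 2 of these 5, for DD subjective night minus LD dark (all probe sets 9.7%), the whole DD day minus the whole LD day (10.8%), the LD curve (8.94%) and the difference between the curves (7.59%). Obp99c read 10.85, 10.89, 10.76, 10.69, 10.94 and 11 from ZT2 to ZT22, and 10.88, 10.88, 10.94, 10.87, 10.82 and 10.82 from CT2 to CT22. It was steady in DD, where all 6 arrays lay within 0.12. Obp99a read 9.26, 9.16, 9.55, 9.54, 9.17 and 9.09 from ZT2 to ZT22, and 9.72, 9.32, 9.20, 9.19, 9.36 and 9.25 from CT2 to CT22. Its high points were ZT10 and ZT14 on the LD day and CT2 on the DD day. The difference between its DD and LD curves had an amplitude of 0.38 (SE 0.107, limma adjusted p = 0.49), and that of Obp44a had 0.24 (SE 0.064, limma adjusted p = 0.435).

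The remaining 18 members, for which no organ was listed, include Obp56a, the sole member that passed. Obp58c had the smallest p for DD subjective day minus DD subjective night, with 2.54 ± 0.05 in subjective day and 2.33 ± 0.11 in subjective night (SD, n = 3 each), and the difference was 0.20 (SE 0.070, limma adjusted p = 0.287). It lay below the lower quartile on every array. Obp57c had the smallest p for DD subjective day minus LD light, with 5.55 ± 0.02 in DD subjective day and 5.34 ± 0.10 in LD light (SD, n = 3 each), and the difference was 0.21 (SE 0.089, limma adjusted p = 0.615). Obp18a, above the upper quartile throughout, lay between 7.47 at ZT6 and 7.90 at CT2.

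The other chemosensory genes on the array gave no call either. They comprise 53 odorant receptor genes with Orco, 28 gustatory receptor genes, 43 ionotropic receptor genes and 19 further genes such as lush and Snmp1, and 0 of these 143 passed in any comparison in limma, with 1 under an unadjusted p of 0.05 for the difference between the curves (0.699%, all probe sets 7.59%) and up to 19 for the whole DD day minus the whole LD day (13.3%, all probe sets 10.8%). Most of the 143 genes lay below the array median on every array, so the lack of calls says little about whether they change. The smallest adjusted p among them was 0.226, for the DD curve of Ir56c (amplitude 0.17, SE 0.045, limma). Next was lz, a transcription factor of antennal hair types and of the eye, with a difference of -0.42 (SE 0.089, limma adjusted p = 0.252) for LD light minus LD dark.

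Some facts of the whole series bear on these values. Eye markers were plainly present, with a mean of 11.70 for Arr2 and 9.23 for trp, and of the neuron markers brp and nSyb lay above the array median on every array while elav lay below it. Arrays correlated with each other at 0.985 to 0.996 over all 66 pairs, and 0 pairs were identical. The probe set of tim read between 6.44 and 6.78, which does not check the genotype, since it reports messenger RNA and not a working protein. Each time point had 1 array, so measurement noise and differences between hours cannot be told apart within a group.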

How the data were processed

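The deposited values are log2 signals, 1 column per array. Per the submitters' processing notes the authors used RMA, in a version not given in the sources used here, and the deposited table held 14010 probe sets. From these, 44 controls were removed, with no filter on low signal. Groups were taken from the array titles. In limma 3.58.1 (R 4.3.3), 4 group means (8 residual df) gave 6 contrasts, and cosine and sine terms gave curves per day (6 df) and shared by both days (8 df), with Benjamini-Hochberg adjustment over 13966 probe sets. Scripts were tested on simulated data. Named in full were Obp56a, members past the threshold, the 6 with the highest mean and the 3 with the largest range; each comparison adds the 2 members with the smallest p. The members, lists and tests were chosen with earlier results of these data known. Organ lists and marker lists rest on background knowledge. RefSeq (Release 6 plus ISO1 MT) supplied names and neighbours; no sequence or coordinate is printed. Alternatives covered normalization, level filter, prior, array weights, single arrays, a linear trend, the body-tissue score, the clock hour as a block and fits per day. Figures used matplotlib 3.10.9.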

Additional observations from a re-analysis of the deposited data

Results flagged for a closer look

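For Obp44a, all 3 DD subjective day arrays lay above all 3 DD subjective night arrays, while all 3 LD light arrays lay below all 3 LD dark arrays, and the day-night difference in DD minus that in LD was 0.33 (SE 0.092), which did not pass the test of that difference (limma adjusted p = 0.394). Obp19d showed the same opposite orders, with 0.25 (SE 0.091, limma adjusted p = 0.556).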

How the results depend on the processing

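Of 207 counts of members past the threshold under other settings, 182 stayed within 1.5 times the reported count and 25 did not. In each comparison the 182 include the count over all probe sets with 1 Obp symbol. That count could not change, since each member had 1 probe set. For the shared curve the count became 0 with quantile normalization repeated (amplitude of Obp56a 0.50, adjusted p = 0.0536), a linear trend over collection hours (0.45, adjusted p = 0.228) and the body-tissue score (0.46, adjusted p = 0.0589), all limma values. Leaving out single arrays gave counts from 0 to 1, with amplitudes of Obp56a from 0.43 to 0.54. For the DD curve the count became 0 among probe sets above the median mean level (0.49, adjusted p = 0.0691), with the linear trend (0.46, adjusted p = 0.146) and with the score (0.41, adjusted p = 0.607), and ran from 0 to 1 when single arrays were left out. The LD amplitude of Obp56a never passed (limma adjusted p from 0.0523 to 0.354). Repeating quantile normalization raised the count for DD subjective night minus LD dark to 1 (Obp44a), and leaving out single arrays gave 0 to 1 for the whole DD day minus the whole LD day (Obp56g, without ZT22). Causes were not tested. The number of all probe sets past the threshold also moved with the setting. For DD subjective day minus DD subjective night it was 194 in the main fit and 254 without CT10. It was 0 with the linear trend and with the score. A member call gained or lost under a setting therefore need not be particular to that member. With the clock hour as a block, the counts between days stayed at 0. Of 530 values for single genes, 505 kept their side of the threshold, and their direction where called, and 25 did not. The 505 include 20 uncalled values that turned direction. The scalings moved array medians by at most 0.068 and 0.088.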
